A study of Mus musculus with 16 samples.

Results

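The ageing of the BACHD heart was followed across all probes of an expression array by setting the ventricles of 4 BACHD mice at 15 mo against those of 4 other BACHD mice at 3 mo. These are 8 of the 16 arrays of the series, and the other 8 hold WT littermates at the same ages, 4 per age. They were chosen by genotype and age as the labels give them. BACHD mice carry full-length human mutant huntingtin on a bacterial artificial chromosome, on the C57BL6/J background, under the human gene's own regulatory sequence and not limited to the heart. WT mice lack the transgene and share the background. Ages in months come from the methods, and the labels call the same groups young and old. The mice came from a cohort kept apart from those followed by echocardiography, and each array held total RNA of the ventricles of 1 mouse, so that ageing was compared between mice and not within them. The labels name the tissue heart. No source used here gives the hour of the day at which hearts were taken.

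As background, Huntington's disease is caused by an expanded glutamine tract in huntingtin, a large scaffold protein present in all cells, and heart disease is a common cause of death in patients. The ageing mammalian heart is known for a shift among the myosin heavy chains, a remodelled collagen matrix, a change in fuel use and a slow inflammatory drift. Chaperones, which refold or hold damaged proteins, and the circadian clock, which times the metabolism of cardiomyocytes, are both studied in models of huntingtin toxicity.

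Values are log2 intensities after background correction and quantile normalization, so that a difference of 1 is a 2-fold change. A probe was called when its unadjusted limma p was below 0.005, the threshold of the methods, and adjusted p values are Benjamini-Hochberg values over all 25697 probes. A probe was detected on an array when the scanner's detection p was below 0.01. A statement that a gene rose or fell means that it was called. Each p measures the spread between these mice, with 1 array each, and at 4 against 4 the exact two-sided permutation test of a gene cannot go below 0.0286, the value that each gene whose groups do not overlap reaches. In whole ventricles, fewer cells of a type and less RNA per cell cannot be told apart.

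The 8 arrays were alike in brightness and in the number of probes detected. Median intensities ran from 134.2 to 149.1 at 3 mo and from 144.1 to 153.4 at 15 mo, and between 9809 and 10708 probes were detected. All 14 measured cardiomyocyte markers were detected on all arrays, with a mean level of 12.80 to 12.87 at 3 mo and 12.78 to 12.83 at 15 mo. The atrial marker list, of 11 genes, stood higher on aged BACHD arrays 3 and 4 (7.21 and 7.17) than on the other 6 (6.34 to 6.68), and its atrial genes Myl7 and Sln were detected only on 4 aged arrays of the series, 2 of them BACHD, Mybphl only on 4 aged arrays, 3 of them BACHD, while Bmp10 and Nr2f2 were detected on none. Red blood cell and platelet markers reached 9.61 on aged array 4 against 8.23 to 8.35 on the other aged arrays and 7.61 to 8.18 at 3 mo. All 11 of these markers had a higher mean at 15 mo and none was called. The part of these cells in the results was not tested.

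The aged arrays did not lie equally far from the young ones. Over the 1324 probes called between the ages, aged array 3 was the nearest to the young mean for 793 (59.9%) and aged array 4 the farthest for 659 (49.8%). Over all 10299 probes detected on at least 4 of the 8 arrays these shares were 37.8% and 35.9%. Without array 3 the number of called probes was 1611, and without array 4 it was 909. Values without array 3 or 4 are given beside the results for which they moved most.

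Ageing of the BACHD ventricle moved 1324 of 25697 probes past the threshold (5.15%), and they stand for 1117 named genes. The called probes were split into 690 that rose (2.69% of all probes) and 634 that fell (2.47%). After adjustment 771 probes (3.00%) stayed below 0.05, 403 higher and 368 lower. The 4 aged values lay wholly above or below the 4 young ones for 2286 probes (8.90%). Most changes were small: the median size among called probes was 0.47, and 113 probes moved by more than 1, 68 of them upward. Of the called probes 80 were detected on none of the 8 arrays and 1183 on at least 4. When each of 16593 genes was read by its brightest probe, 514 rose (3.10%) and 480 fell (2.89%), and the median difference was close to 0 at -0.0036. These shares are the background for the gene lists below.

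The smallest p of the whole comparison belonged to Cds1, an enzyme that makes CDP-diacylglycerol for the synthesis of phosphatidylinositol. Its level was 7.47, 7.19, 6.73 and 7.09 in the 4 young BACHD hearts and 8.90, 8.85, 8.71 and 8.94 in the 4 aged ones. No aged value came near the young range, and the rise was 1.73 ± 0.13 (SE, adjusted p = 1.44e-05), or 3.32-fold. Skap2, an adaptor of Src family kinases, went from 8.73 to 8.81 up to 9.61 to 10.04 and Sncg, which encodes gamma-synuclein, from 7.58 to 7.80 up to 8.61 to 8.99. Both rose about 2-fold, by 1.10 and 1.08 (adjusted p = 4.21e-05 each). These 3 genes also rose in WT ventricles, by 1.78, 1.24 and 0.94.

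Gpnmb, a membrane glycoprotein of lysosomes and macrophages, was among the sharpest switches. The young hearts gave 5.95, 6.06, 6.01 and 5.94 and the aged hearts 7.75, 7.88, 7.42 and 8.26. The young values were almost equal and the aged ones lay more than a unit above them, a rise of 1.84 ± 0.19 (adjusted p = 0.000191). Among the 30 leading probes, 15 in each direction, Gpnmb had the largest difference, and the probe most like it was that of Myl1, which mirrored it (Pearson r = -0.994 over the 8 arrays, a value that includes the step between the ages). Fstl4, a secreted follistatin-like protein, and Ric3, a chaperone of acetylcholine receptors, were detected on all aged and on no young BACHD arrays, so that their rises are bounds, of at least 1.60-fold and at least 1.69-fold. Tac1, the precursor of the neuropeptide substance P, rose by 1.60, Tdrp by 1.26 and Thbs2, a matrix-binding thrombospondin, by 1.07. Nudt16, a hydrolase of inosine nucleotides, rose by 1.045, Tnfsf13b, the B cell survival factor BAFF, by 0.84, Rab4a, a GTPase of endosome recycling, by 0.78, and Tspan17, a tetraspanin, by 0.71. The adjusted p of all of these was at most 0.000648, and each stayed called when any 1 of the 8 arrays was left out.

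On the falling side the lowest p was that of Ddc, the decarboxylase that makes dopamine and serotonin. It read 6.75, 6.25, 6.47 and 6.29 in young hearts, and 5.14, 4.88, 5.01 and 5.04 in aged ones, where it was not detected, lower by at least 1.79-fold (adjusted p = 0.000118). The leading probe of Hr, a corepressor of nuclear receptors, was likewise below detection in aged BACHD hearts, lower by at least 1.67-fold. The brightest Hr probe was detected on all 16 arrays and went from a mean of 9.87 to 8.82, called as well. Lgi1, a secreted leucine-rich protein, fell by 1.01, Slc26a6, a chloride and bicarbonate exchanger of cardiomyocytes, by 1.02, and Wfdc1, a secreted protein with a protease inhibitor fold, by 1.01. Lgi1 was detected on 1 of the 4 aged arrays, so that its aged level is at or near background. Smaller falls at like p were those of Josd2, a deubiquitinase (fell by 0.80), Dut, which clears dUTP (fell by 0.79), Gpt2, the mitochondrial alanine transaminase (fell by 0.76), and Slc31a1, the copper importer (fell by 0.72). The 3 probes of Ctsc, a lysosomal protease that activates serine proteases of leukocytes, fell by 0.64, 0.58 and 0.56. A probe of the histone gene H3c14 fell by 0.95, but its brightest probe moved by 0.04 and was not called. The leading probes of these lower genes stayed called without any 1 array.

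**Figure D1:**
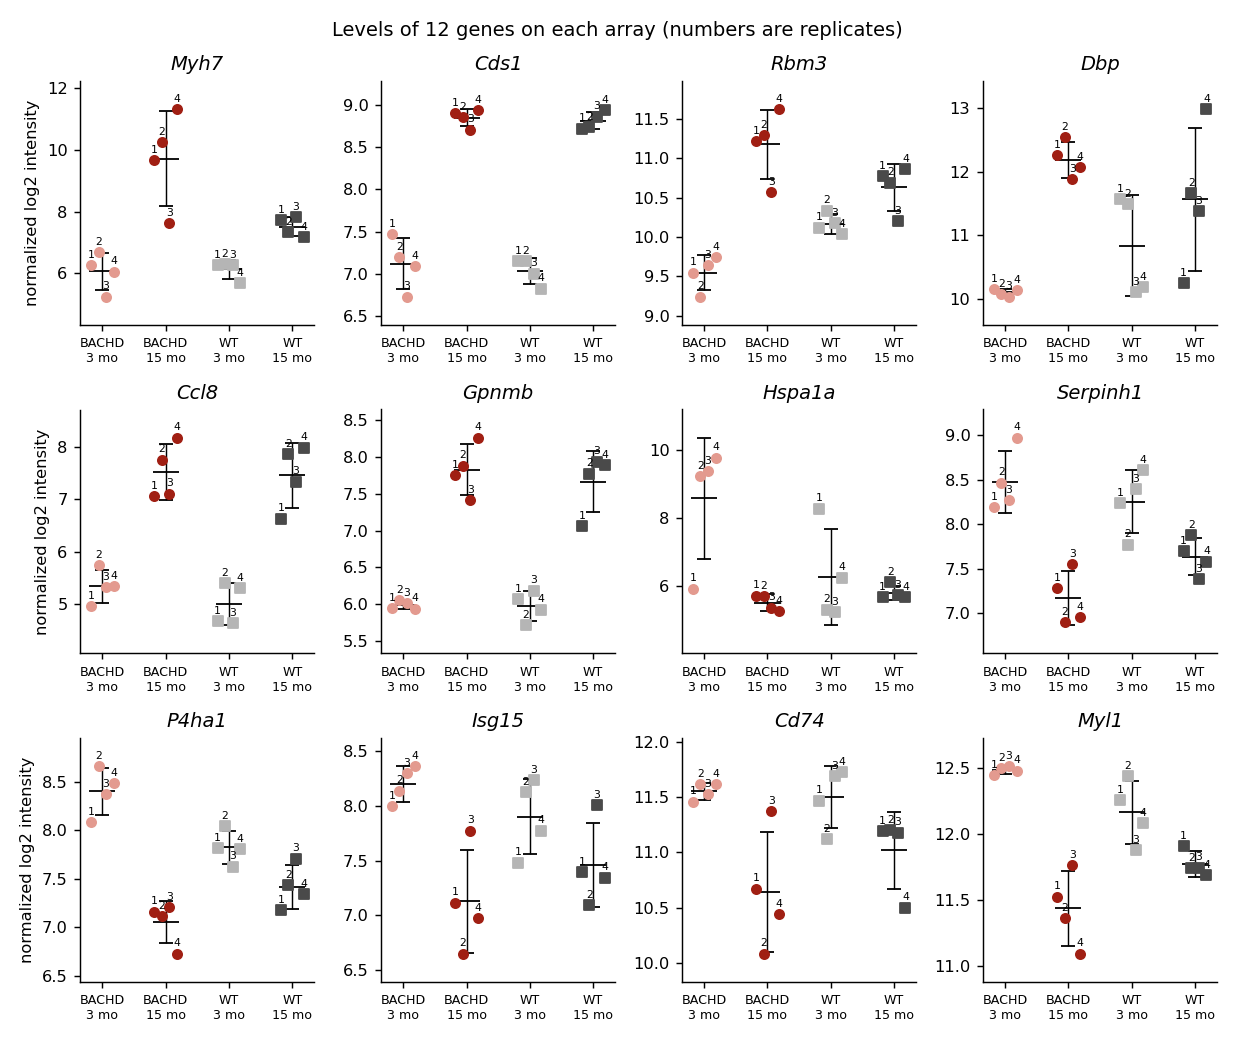
Normalized log2 intensity (y axis) of 12 genes on each of the 16 arrays, with the replicate number beside each point and the mean ± SD of each group (n = 4). In Cds1, Gpnmb and P4ha1 the BACHD age groups are wide apart. In Cd74 and Isg15 aged array 3 (11.37 and 7.77) lies close to the young range, and in Hspa1a young array 1 (5.92) lies with the aged hearts.

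The largest rise of all was in Myh7, the slow beta isoform of the myosin heavy chain that mouse hearts express before birth and reactivate under load. The young hearts read 6.28, 6.69, 5.25 and 6.06, near the limit of detection, and the aged hearts 9.67, 10.26, 7.64 and 11.33. All aged values were higher, but they spread over more than 3 units, with array 3 the lowest and array 4 the highest. The rise was 3.66 ± 0.54 (adjusted p = 0.00253), or 12.6-fold. It was 4.35 without aged array 3 and 3.12 at the weakest with 1 BACHD array left out. Myh6, the alpha isoform that dominates the adult mouse ventricle, was measured at 14.58 to 14.77 and at 14.77 to 14.86, a difference of 0.13 that was not called. In WT ventricles Myh7 went from 6.13 to 7.52, a difference of 1.39 that missed the threshold. The difference between the genotypes, 2.27 ± 0.77, missed it as well (adjusted p = 0.76, limma).

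Apart from Myh7, the fetal and stress program changed little: of 15 measured genes 2 rose and none fell, with a median of 0.05. Nppa, the atrial natriuretic peptide gene, was at 13.31 to 13.61 at 3 mo and at 13.79, 14.55, 12.77 and 13.69 at 15 mo, so that aged array 3 fell below and array 2 above all others. Nppb, the brain natriuretic peptide gene, was at 13.69 to 14.01 and at 13.63 to 14.10. Neither was called, with differences of 0.18 ± 0.30 and -0.05 ± 0.12. The other called member was Tpm2, a tropomyosin, at 0.31, with overlapping ages, and it lost its call without any of 6 arrays (0.26 at the weakest). Of 20 sarcomere and Z disc genes 2 rose, Myot, which encodes myotilin, by 1.02 with overlapping ages and a call lost without any of 5 arrays (0.85 at the weakest), and Tcap, the titin cap of the Z disc. Tcap read 13.68, 13.55, 13.58 and 13.83 in young hearts and 14.40, 14.34, 14.30 and 14.51 in aged ones. The ranges were apart and the rise was 0.73 ± 0.15 (adjusted p = 0.0163). Myl1, the alkali light chain of fast skeletal muscle, fell by 1.053 ± 0.13 from a narrow young range of 12.45 to 12.52 to 11.09 to 11.77. As a group, 15 of 16 fast skeletal muscle markers were lower on average, with a median of -0.45 and only Myl1 called. This median ran from -0.61 to -0.22 when 1 BACHD array was left out and from -0.89 to -0.23 over the other settings that kept all 16 arrays. The skeletal heavy chains Myh1 and Myh4 were not detected.

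Among genes of calcium and of membrane currents, single members moved and the lists did not. Of 20 calcium cycling genes 1 rose and 1 fell, and the median was 0.0043. The gene that rose was Slc8a1, the sodium and calcium exchanger, from 11.78, 11.71, 11.75 and 11.63 to 12.20, 12.46, 12.20 and 12.35. Its groups were well apart and the rise was 0.59 ± 0.08 (adjusted p = 0.00115). Kcnh2, the channel of the rapid delayed rectifier current, rose by 0.67 ± 0.12 (8.83 to 8.94 against 9.38 to 9.77). Kcnj12, an inward rectifier of the resting potential, fell by 0.63 ± 0.13 and the pacemaker channel Hcn2 by 0.52 ± 0.14, the latter with an adjusted p of 0.0559 and a call lost without aged array 1 (-0.51). The other 16 of 19 channel and connexin genes were not called. The calcium-handling gene Asph fell by 0.44 on its brightest probe, but its probes differed: averaged over them its difference was 0.0501, and the call of the brightest was lost without young array 4 (-0.40) or aged array 4 (-0.34).

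Collagens formed the list with the lowest median. Of 17 measured collagen genes none rose and 9 fell, and 16 had a negative difference, with a median of -0.49 against -0.0036 over all genes, of which 2.89% fell. Col1a1, the main fibrillar collagen of the heart together with Col1a2, read 7.86, 7.97, 8.11 and 7.96 in young BACHD hearts and 6.75, 6.27, 7.63 and 6.25 in aged ones. Aged arrays 1, 2 and 4 lay more than a unit below the young mean and array 3 only slightly below. It fell by 1.25 ± 0.28 (adjusted p = 0.0255). The difference was -1.55 without array 3 and -1.09 at the weakest with 1 BACHD array left out. Col15a1, a collagen of basement membrane zones, fell by 1.27 ± 0.28 (9.39 to 9.46 against 8.32, 7.76, 9.06 and 7.46) and Col6a2, a chain of the microfibrillar collagen VI, by 1.03 ± 0.20. Col3a1 fell by 0.92 (adjusted p = 0.0657), a call that was lost when any of 5 arrays was left out (-0.81 at the weakest). The mean over the list was 7.66 to 7.68 on the young arrays and 7.06, 6.97, 7.46 and 6.94 on the aged ones, so that the same array 3 stood apart for the list as a whole. Without it 10 collagens fell and the median was -0.61. With 1 BACHD array left out the median was -0.42 at the weakest.

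The machinery that makes collagen moved the same way. Of 19 genes of collagen processing and crosslinking 6 fell and none rose, although the median of -0.13 was small. P4ha1, the catalytic subunit of prolyl 4-hydroxylase, which stabilizes the collagen helix, read 8.09, 8.66, 8.37 and 8.49 in young and 7.16, 7.12, 7.21 and 6.73 in aged hearts. Here array 3 was not set apart, and it fell by 1.35 ± 0.14 (adjusted p = 0.000253), or 2.54-fold. Serpinh1, the collagen chaperone HSP47, was at 8.19, 8.47, 8.27 and 8.97 and then at 7.28, 6.89, 7.55 and 6.95, so that it fell by 1.30 ± 0.20 (adjusted p = 0.00312). P4ha2, the sister subunit of P4ha1, fell by 0.63 and the lysyl hydroxylase Plod1 by 0.70.

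Among other matrix genes 5 of 32 glycoprotein, proteoglycan and elastic fiber genes fell and 1 rose. Sparc, a secreted collagen-binding protein, fell by 0.98 ± 0.19 from 11.99 to 12.32 to 10.93, 10.83, 11.80 and 10.98, again with array 3 nearest the young hearts. Its difference was -1.20 without array 3 and -0.88 at the weakest with 1 BACHD array left out. The microfibril genes Mfap4 and Mfap5 fell by 1.28 and 1.00. Thbs2 was the member that rose. Of 20 matrix proteases and inhibitors Adam17, the sheddase of tumor necrosis factor, fell by 0.83 ± 0.12, and Mmp3, the protease stromelysin-1, rose by 1.00. Mmp3 had an adjusted p of 0.0534 and lost its call without any of 3 arrays (0.75 at the weakest). Of 23 genes of TGF beta signaling 3 fell, among them the ligand Tgfb3 (fell by 0.51) and the transducer Smad2 (fell by 0.48). The coreceptor Tgfbr3 rose by 0.40, lost its call without any of 5 arrays (0.32 at the weakest), and its second probe, below detection in young BACHD hearts, was also called higher. Fibroblast markers gave 6 lower and none higher of 15, with a median of -0.15 (-0.24 without array 3 and -0.12 at the weakest). Their called genes included collagens and Mfap5, which the matrix lists also hold. Whether fibroblast number changed was not tested.

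The interferon response list, the genes that type I and type II interferons switch on through STAT and IRF factors, had a median of -0.28, with 11 of 42 lower, none higher and 34 negative. Isg15, a ubiquitin-like modifier, was at 7.997, 8.14, 8.30 and 8.36 in young hearts and at 7.12, 6.65, 7.77 and 6.97 in aged ones. The groups did not overlap, with aged array 3 closest to the young range, and it fell by 1.07 ± 0.23 (adjusted p = 0.0218). Gbp3, an interferon-induced GTPase, fell by 1.14 ± 0.22, Oas1g, a synthetase of the antiviral 2-5A messenger with several near-identical paralogs, by 0.90 ± 0.17, and Ifit3, an antiviral protein that binds foreign RNA, by 0.88 ± 0.19. Without array 3 the list had 14 lower genes and a median of -0.37, and over the other settings the median ran from -0.45 to -0.09. Aged WT array 4 shared the low level: the list mean was 6.93, 6.80, 7.16 and 6.88 on the 4 aged BACHD arrays and 7.10, 7.06, 7.17 and 6.91 on the aged WT arrays.

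The promoters of these 4 interferon genes are shown because each holds the element that interferon-activated factors are known to read. Stretches of 100 bases within the 250 before the gene start are from RefSeq on GRCm38.p6, written 5′ to 3′ on the gene's strand. In capitals are 2 copies of GAAA set apart by any 2 bases, on either strand, with overlapping matches merged. The stretches begin 111 bases before the start for Isg15, 167 for Ifit3 and 100 for Oas1g and Gbp3. Gbp3 has 2 promoter windows, and 1 of them holds the pattern. They lie at chr4:156200830-156200929 on the minus strand for Isg15, chr19:34583362-34583461 on the plus strand for Ifit3, chr5:120887614-120887713 on the minus strand for Oas1g and chr3:142559944-142560043 on the plus strand for Gbp3.
Isg15: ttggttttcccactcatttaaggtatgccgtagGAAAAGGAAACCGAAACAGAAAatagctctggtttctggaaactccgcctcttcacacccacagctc
Ifit3: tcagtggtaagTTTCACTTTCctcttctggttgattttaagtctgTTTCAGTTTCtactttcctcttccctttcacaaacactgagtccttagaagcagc
Oas1g: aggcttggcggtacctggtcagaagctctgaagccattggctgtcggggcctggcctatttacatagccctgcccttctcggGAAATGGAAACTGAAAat
Gbp3: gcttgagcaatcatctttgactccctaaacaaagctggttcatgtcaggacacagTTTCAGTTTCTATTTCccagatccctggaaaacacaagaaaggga
In the 250 bases before the start this pattern occurs in 3.46% of 27025 genes. It occurs in 4 of the 8 lower interferon genes that have a promoter entry and in 10 of the 25 that were not called, so that holding the element did not set the genes that fell apart from the rest of the list. A match is a description of the sequence and was not tested as a binding site.

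MHC class II genes, which present peptides on macrophages, dendritic cells and B cells, showed the same shape. Of 12 genes 4 fell and none rose, 11 were negative and the median was -0.34, within -0.74 to -0.18 over the other settings. Cd74, the invariant chain, read 11.46, 11.62, 11.53 and 11.62 at 3 mo and 10.67, 10.08, 11.37 and 10.44 at 15 mo. Array 3 stood just under the young hearts and the other 3 about a unit below, so that Cd74 fell by 0.91 ± 0.23 (adjusted p = 0.0424). The difference was -1.16 without array 3 and -0.73 at the weakest with 1 BACHD array left out. H2-Ab1 fell by 0.86, H2-Eb1 by 0.78 and H2-DMa by 0.70, but H2-Ab1 lost its call without aged array 2 or 4 (-0.74 at the weakest) and H2-Eb1 and H2-DMa each without any of 4 arrays, at the weakest -0.66 and -0.59. None of 22 genes of MHC class I and antigen processing was called, with a median of -0.05 and 18 negative.

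Chemokines moved in both directions. Of 33 chemokine and cytokine genes 4 rose and 2 fell. Ccl8, a monocyte chemokine, was not detected in young BACHD hearts (4.96, 5.73, 5.32 and 5.34) and was detected in all aged ones (7.07, 7.77, 7.11 and 8.19), a rise of at least 3.49-fold (adjusted p = 0.00168). Ccl11, the eosinophil chemokine eotaxin, was at 6.34, 6.31, 6.71 and 6.77 and rose to 8.03, 8.13, 7.89 and 7.97, by 1.47 ± 0.21 (adjusted p = 0.00168). Both rose with no overlap between ages. Cxcl9, an interferon-induced T cell chemokine, fell by 1.42 ± 0.31 (8.45 to 8.90 against 7.499, 6.95, 7.98 and 6.40), and Cxcl13, a B cell chemokine, was called higher from undetected levels (4.38 to 4.57) but detected on only 2 aged arrays (5.10 to 6.34), so that no size is given. Its call was lost without any of 5 arrays or with an offset of 50.

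Of the 21 macrophage and myeloid markers, 4 fell and 2 rose, and 15 were negative, with a median of -0.18 (-0.30 without aged array 3 and -0.13 at the weakest). Adgre1, the F4/80 antigen of resident macrophages, was at 7.11, 7.38, 7.19 and 7.24 and then at 5.80, 6.58, 6.78 and 6.54, so that it fell by 0.80 ± 0.17 (adjusted p = 0.0205). Lgals3, the lectin galectin-3 of phagocytes, rose by 0.67 ± 0.16, and the other marker that rose was Gpnmb. Of 17 complement genes 3 fell, the C1q chains C1qa, C1qb and C1qc, by 0.46, 0.59 and 0.44, and C4b, which shares most of its sequence with a neighbouring copy, rose by 0.98. These 4 complement calls had adjusted p between 0.0643 and 0.0776 and each was lost without any of 5 arrays, with 0.79 for C4b and -0.38, -0.51 and -0.38 for C1qa, C1qb and C1qc at the weakest. None of 18 T and NK cell markers and none of 14 B and plasma cell markers was called. However, 15 of the 18 and 11 of the 14 were detected on none of the 8 arrays, so that a change in those could not be seen. S100a8, an alarmin of neutrophils, went from 7.02, 6.203, 8.03 and 7.17 to 9.30, 9.80, 8.36 and 11.06 and was the only called gene of 15 in its list. Its rise of 2.52 ± 0.68 had an adjusted p of 0.0569, was highest on aged array 4, where the blood cell markers were also highest, and was 2.05 without that array, no longer called, as also without young array 1 or 2 or aged array 2, with no value under 2.05.

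Heat shock proteins and chaperones fell as a list. Of 28 measured genes 10 fell and none rose, 21 were negative and the median was -0.34. Hspa1a, the stress-inducible HSP70, which shares nearly all of its sequence with Hspa1b, read 5.92, 9.23, 9.39 and 9.78 in young BACHD hearts and 5.72, 5.71, 5.36 and 5.25 in aged ones. Young array 1 lay with the aged hearts and the other 3 young hearts more than 3 units above them. It fell by 3.07 ± 0.73 (adjusted p = 0.0348) and was detected on 2 of the 4 aged arrays, so that the aged level is at or near background. The difference was -3.96 without young array 1 and -2.67 at the weakest with 1 BACHD array left out. In WT ventricles the same probe was high on young array 1 alone (8.28) and at 5.23 to 6.25 on the other young arrays, so that high Hspa1a marked 4 of the 8 young hearts of the series and none of the 8 aged ones. Hsph1, the HSP110 partner of HSP70, was at 10.10, 11.27, 10.68 and 11.13 and then at 9.70, 9.70, 9.504 and 9.07, so that it fell by 1.30 ± 0.24 (adjusted p = 0.00811). Fkbp4, a cochaperone of HSP90, fell by 0.65 ± 0.11 and Chordc1, another HSP90 partner, by 0.68 ± 0.13, and for all 3 of these genes the age groups were apart. The mean over the list ran from 10.02 to 10.36 at 3 mo and from 9.80 to 9.91 at 15 mo, with young array 1 again the lowest of its group. The heat shock element, searched on either strand as GAA, TTC and GAA or as TTC, GAA and TTC, each set apart by any 2 bases, was in the promoter window of none of 9 lower genes and of 2 of 14 that were not called, against 0.514% of all genes. These letters cover only 3 perfect repeats, and no more is said of the factor. Of 25 genes of the endoplasmic reticulum stress response 3 fell and none rose, with a median of -0.14. Among these the disulfide isomerase Pdia4 fell by 0.62 (adjusted p = 0.0492) and lost the call without aged array 2 (-0.53) or young array 4 (-0.54).

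Both RNA-binding proteins known to rise when mammalian cells are cooled were higher in aged BACHD hearts. Rbm3 was at 9.55, 9.24, 9.65 and 9.75 and then at 11.23, 11.30, 10.57 and 11.63. All aged hearts were higher, array 3 least, and the rise was 1.63 ± 0.19 (adjusted p = 0.000496), or 3.10-fold. Cirbp read 8.54, 7.94, 8.19 and 7.97 at 3 mo and 9.75, 9.79, 8.73 and 10.02 at 15 mo, a rise of 1.42 ± 0.23 (adjusted p = 0.00469). This rise was 1.70 without array 3 and 1.27 at the weakest with 1 BACHD array left out. In WT ventricles Rbm3 differed by 0.47 between the ages and was not called, and its ageing difference was 1.17 larger in BACHD (adjusted p = 0.65, limma).

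Genes of the circadian clock had the highest medians of the 38 pathway lists. Of 16 clock output genes 4 rose and none fell, with a median of 0.33, and of 17 core clock genes 3 rose and 1 fell, with a median of 0.29. The output genes that rose were Ciart, Dbp, Rbm3 and Cirbp. Ciart is thus counted in both lists, and Rbm3 and Cirbp are the genes already given above. Dbp, a transcription factor driven directly by the clock, was within 10.03 to 10.15 in all 4 young BACHD hearts and at 12.26, 12.54, 11.89 and 12.07 in the aged ones. The rise was 2.09 ± 0.45 (adjusted p = 0.0213), or 4.26-fold. The same gene spread within WT groups, with young values of 11.57, 11.49, 10.11 and 10.19 and aged values of 10.24, 11.66, 11.38 and 12.98, so that hearts of 1 age and genotype could differ by more than 1 unit. Nr1d1, the repressor REV-ERB alpha, rose by 0.63 ± 0.16 (adjusted p = 0.0478) and the repressor Cry2 by 0.70 ± 0.20 (adjusted p = 0.0789). Nfil3, which competes with Dbp for its sites, fell by 1.03 ± 0.28 (adjusted p = 0.0625), from 9.64 to 10.07 to 8.51 to 9.34. Ciart, a repressor of the clock's activator, went from 5.25, 5.67, 5.27 and 5.95 to 7.82, 8.92, 6.63 and 8.29, a rise of 2.38 ± 0.67 (adjusted p = 0.0683). Nr1d1 lost its call without aged array 1 or 4, Cry2 without any of 5 arrays, and Nfil3 and Ciart without any of 6, while all kept their direction, with weakest values of 0.58, 0.51, -0.90 and 2.05. Time of day was not tested.

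The promoter of Ciart is shown because it holds the E-box CACGTG, read by the CLOCK and BMAL1 pair, in capitals, 2 times within its last 100 bases before the start (RefSeq, GRCm38.p6, chr3:95882229-95882328, minus strand).
Ciart: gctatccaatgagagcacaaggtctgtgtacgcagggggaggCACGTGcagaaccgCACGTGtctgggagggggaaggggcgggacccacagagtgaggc
The E-box was in the window of 6.86% of all genes, of 1 of the 3 core clock genes that rose and of 3 of the 10 that were not called. The D-box TTATGTAA or TTACGTAA, which Dbp and Nfil3 share, was in 1.10% of all windows and in none of the 3 core clock genes that rose.

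**Figure D2:**
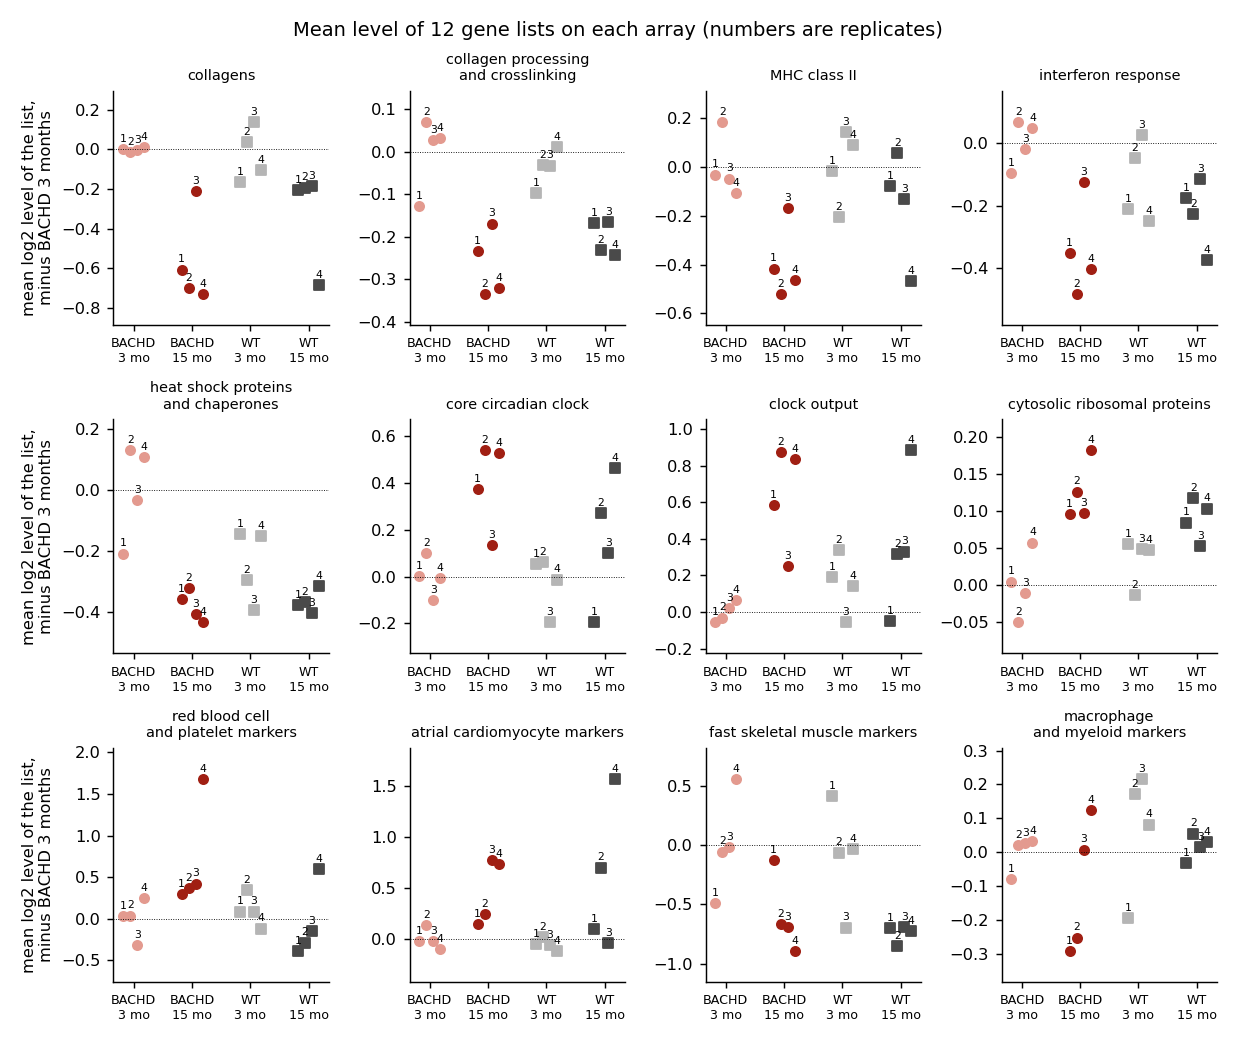
Mean log2 level of 12 gene lists on each of the 16 arrays, as the difference from the mean of the 3 mo BACHD arrays (y axis), with replicate numbers beside the points. Collagens, MHC class II and interferon genes are low on aged BACHD arrays 1, 2 and 4 and on aged WT array 4 (collagens at 7.06, 6.97, 6.94 and 6.98 before centring), and less so on aged BACHD array 3 (7.46).

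In metabolic lists the medians were small and single members moved, beside 3.10% of all genes that rose and 2.89% that fell. Of 57 respiratory chain and ATP synthase genes 3 fell and none rose, with a median of -0.0117. Of these Cycs, which encodes cytochrome c, fell by 0.37 ± 0.09 and the complex III genes Cyc1 and Uqcrc1 by 0.20 each, with adjusted p of 0.0817 and 0.0688 and calls lost without any of 7 and of 5 arrays (-0.17 and -0.15 at the weakest). Of 28 genes of fatty acid uptake and oxidation 1 rose and 3 fell. Acads, the short-chain acyl-CoA dehydrogenase, fell by 0.35 ± 0.08, Cpt2 of the carnitine shuttle by 0.33 and the carnitine importer Slc22a5 by 0.33, while Acadl, the long-chain dehydrogenase, rose by 0.44 ± 0.11 and lost its call without young array 1 (0.34) or aged array 4 (0.40). Slc22a5 lost its call without aged array 2 (-0.26), and Cpt2 without any of 4 arrays (-0.24 at the weakest). Bdh1, the first enzyme of ketone body use, doubled: it was at 9.66, 9.85, 10.06 and 9.53 and then at 10.80, 10.23, 11.18 and 10.91, a rise of 1.00 ± 0.18 (adjusted p = 0.00746). In WT ventricles Bdh1 rose by 1.63. Oxct1, the next enzyme of ketone oxidation, fell by 0.30 with overlapping groups and a call lost without any of 3 arrays (-0.25 at the weakest). The glucose transporter Slc2a1 rose by 0.68 ± 0.12 (8.41 to 8.75 against 8.997 to 9.55), Pdk1, a kinase that shuts pyruvate out of the citric acid cycle, by 0.47 ± 0.08, and the orphan receptor Esrrb by 0.53 ± 0.08 (adjusted p = 0.00261). Slc2a1 was the only gene to rise of 25 of glycolysis, glucose uptake and glycogen, of which 18 were negative, with a median of -0.05. The 2 that fell, Pfkl and Dlat, lost their calls without any of 3 and of 6 arrays (-0.32 and -0.23 at the weakest). Of 27 PPAR target and fuel switch genes 3 rose, Bdh1, Pdk1 and Esrrb, and 1 fell, Oxct1, with a median of 0.06.

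Ribosomal proteins of the cytosol and of mitochondria went opposite ways by small amounts. Of 44 cytosolic ribosomal protein genes 38 were positive, with a median of 0.14, and 5 rose, among them Rpl3 by 0.39 ± 0.08 and Rps13 by 0.26 ± 0.07. Of 35 mitochondrial ribosomal protein genes 29 were negative, with a median of -0.12, and 3 fell, including Mrps12 by 0.25 ± 0.06. Without aged array 3 the mitochondrial list had 9 lower genes. With arrays scaled to a common median in place of quantiles, both medians kept their sign (0.10 and -0.15), but Rpl3 and Rps13 were no longer called. Other calls given here and lost with that scaling were those of Tpm2, Asph, Hcn2, Tgfbr3, Smad2, H2-DMa, C1qa, Nr1d1, Slc22a5, Dlat, Cycs, Cyc1, Uqcrc1, Prdx4, Mcm4, Eif1a and Stk38l, and averaging the probes of a gene ended those of Tpm2, Asph, Mmp3, Col3a1, Ifit3, Nr1d1, Acadl, Slc22a5, Pfkl, Cycs, Gstm1 and Mcm4.

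In the antioxidant list 4 of 35 genes rose and none fell. Nqo1, the quinone reductase that NRF2 induces, was at 9.02, 9.11, 9.20 and 9.37 and rose to 10.21, 9.87, 9.93 and 10.34, by 0.91 ± 0.11 (adjusted p = 0.000582). Gpx3, the secreted glutathione peroxidase, rose by 0.54 ± 0.11, Gstm1, a glutathione transferase with several close relatives, by 0.51 ± 0.12, and Prdx4, the peroxiredoxin of the endoplasmic reticulum, by 0.33 ± 0.08. Of 27 genes of lipid synthesis 4 rose and 1 fell. Acaca, the acetyl-CoA carboxylase of fat synthesis, rose by 0.62 ± 0.16 and lost the call without aged array 2 (0.56), and Scd4, a desaturase found mainly in heart, rose by 1.83 ± 0.46 with 1 aged value (7.06, array 3) under the highest young one (7.22), and lost its call without aged array 1 or 2 (1.55 at the weakest).

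Htt itself was near background. The mouse probe read 5.95, 5.74, 5.52 and 5.74 at 3 mo and 5.91, 5.49, 5.77 and 5.59 at 15 mo, it was detected on 5 of the 8 arrays, and the difference was -0.04 ± 0.12. Whether this probe also reads the human transgene is not known from the files, so that it is no check of the genotype. Tbp, a transcription factor used as a reference gene, differed by 0.06 ± 0.10. In the list of huntingtin and its partners 1 of 15 measured genes moved. It was Dctn1, the large subunit of the dynactin complex, which takes part with huntingtin in moving cargo along microtubules. Dctn1 rose from 7.89, 8.02, 8.13 and 8.16 to 9.28, 9.08, 8.81 and 9.33. Its groups were apart, and the rise was 1.07 ± 0.22 (adjusted p = 0.0167), beside 0.81 in WT. Of 36 apoptosis regulators 1 rose, and of 34 ubiquitin and proteasome genes 1, both shares close to the 3.10% of all genes that rose. No gene of either list fell. Of 35 autophagy and lysosome genes 2 rose, with a median of 0.05 that ran from -0.002 to 0.05 when 1 BACHD array was left out. Without aged array 3, the one nearest the young hearts, 7 rose and the median was 0.04. Of 37 cell cycle genes Mcm4, a subunit of the replicative helicase, rose by 0.42 ± 0.08, and 29 were negative. As 23 of the 37 were detected on none of the 8 arrays and 11 on at least 4, many of these signs are those of background values. Dbh, which makes noradrenaline in sympathetic nerves, fell by 1.13 ± 0.22 (6.50 to 6.85 against 5.21 to 5.82) and was the only called gene of 14 nerve and Schwann cell markers.

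**Figure D3:**
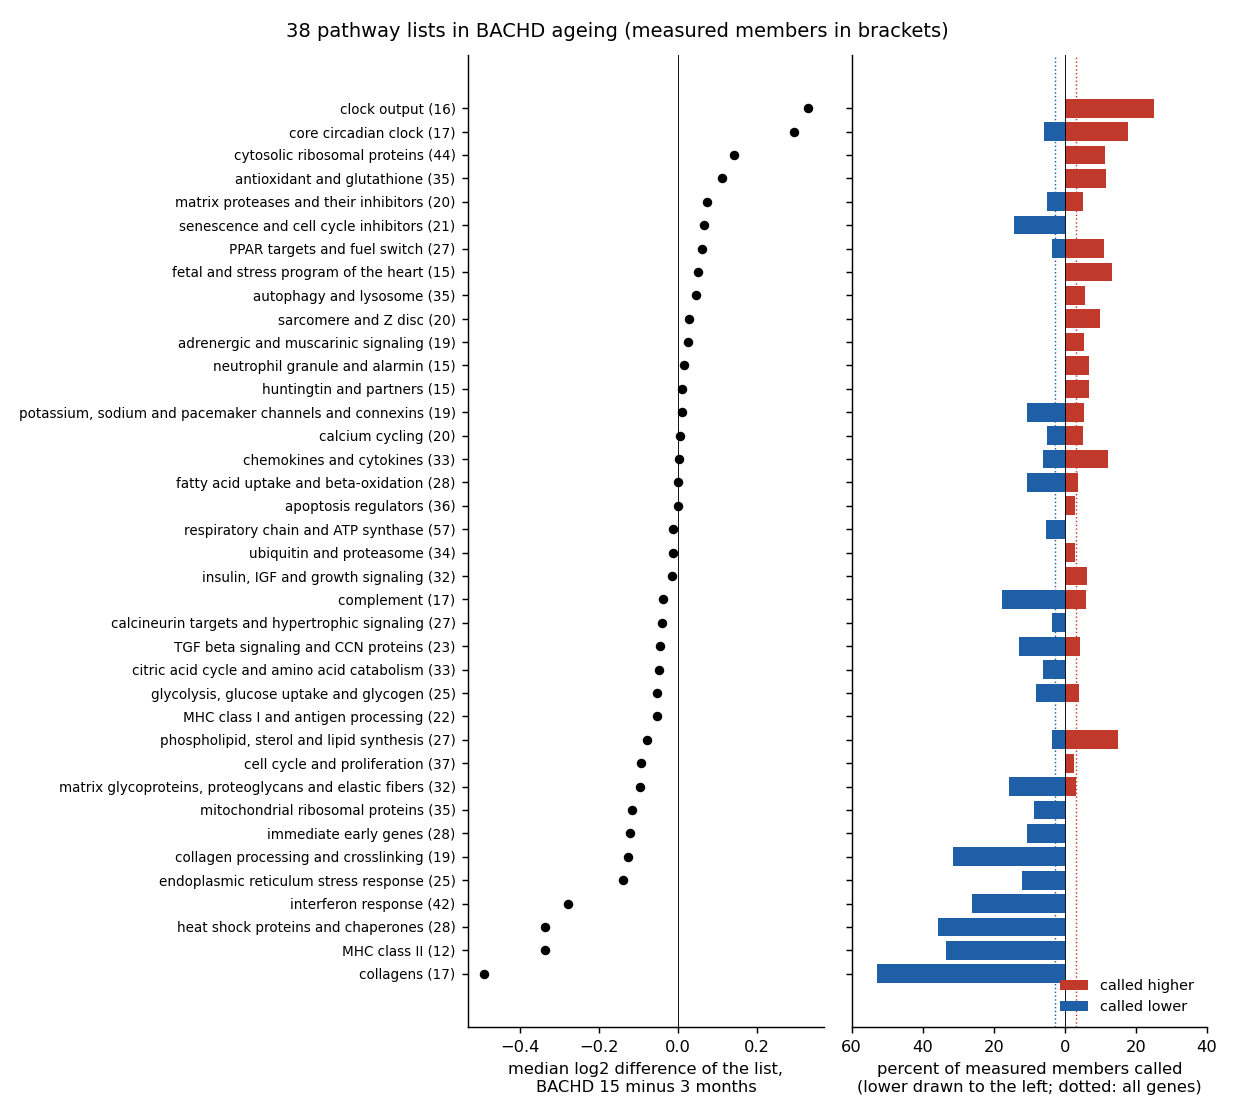
For 38 pathway lists, with the number of measured genes in brackets, the median log2 difference between 15 mo and 3 mo BACHD ventricles (left) and the percent of members called higher or lower (right). Dotted lines mark the shares over all genes (3.10% higher and 2.89% lower). Collagens have the lowest median (-0.49, 9 of 17 lower) and clock output genes the highest (0.33, 4 of 16 higher).

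The ageing of WT ventricles gave 711 called probes (2.77%), 428 higher and 283 lower. Of the 1324 probes called in BACHD, 1195 (90.3%) had the same sign in WT, against 58.8% of all probes, 306 were called there in the same direction and 2 in the opposite one, and the WT difference was smaller than the BACHD one for 1202. The latter count is shaped by choosing probes on their BACHD values. Across all probes the ageing differences of the genotypes, which share no array, correlated with r = 0.516, and across the 10299 detected probes with r = 0.613. Both are descriptions across genes, which are not independent replicates.

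The difference of the ageing effect between genotypes, tested as an interaction, was called for 157 probes (0.611%), where 128 of 25697 lie below this threshold under uniform p values. None had an adjusted p below 0.05 in limma, 1590 had an unadjusted p below 0.05, and the smallest adjusted p was 0.0576. The number called was 331 without aged BACHD array 3. The changes listed above are thus not shown to be particular to BACHD hearts. Among the lists, the collagens had a median of -0.19 in WT with none of 17 called, but for none of them was the difference between genotypes called. The same held for the MHC class II list, with a WT median of -0.24. For interferon genes the WT median was -0.10 with 1 lower, and the difference was called for 1 of 42.

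The probe with the smallest p for the difference was that of Rragd, a Rag GTPase that brings mTORC1 to the lysosome. In BACHD ventricles it read 8.10, 8.24, 8.39 and 8.14 at 3 mo and 8.78, 8.85, 8.72 and 8.86 at 15 mo, and in WT 8.87, 8.70, 8.58 and 8.59 at 3 mo and 8.20, 8.25, 8.33 and 8.54 at 15 mo. It rose by 0.58 in BACHD and fell by 0.35 in WT, with no overlap of the ages in either genotype (difference 0.93 ± 0.13, adjusted p = 0.0576, limma). Zfp933, a zinc finger gene, rose by 0.82 in BACHD beside -0.41 in WT, and Slc17a5, the lysosomal exporter of sialic acid, rose by 0.38 in BACHD (adjusted p = 0.0675) and fell by 0.45 in WT. Slc17a5 lost its BACHD call without any of 5 arrays (0.34 at the weakest), and also with no background correction (0.13), with the authors' processed values, with the replicate block and with trended variances. The opposite directions of Slc17a5 rest on that call.

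Some of these differences came from a change in BACHD with little in WT, and some from the reverse. P4ha1 fell by 1.35 in BACHD and differed by -0.41 in WT, where the young level was lower (7.82 against 8.40 in young BACHD). Dut fell in BACHD and differed by -0.09 in WT. Irf5, an inflammatory transcription factor, fell to undetected levels in BACHD, at least 1.43-fold, and differed by 0.25 in WT. Stk38l, a kinase of the Hippo group, fell by 0.38 in BACHD and Eif1a, an initiation factor of translation, rose by 0.31, and both calls were lost with median scaling. By contrast, Nmral1, a redox sensor, and Dpp7, a lysosomal peptidase, were not called in BACHD (0.20 and 0.09) while they fell by 0.81 and rose by 0.64 in WT. For all of these the interaction p was at most 0.000435 and the adjusted p at least 0.56.

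**Figure D4:**
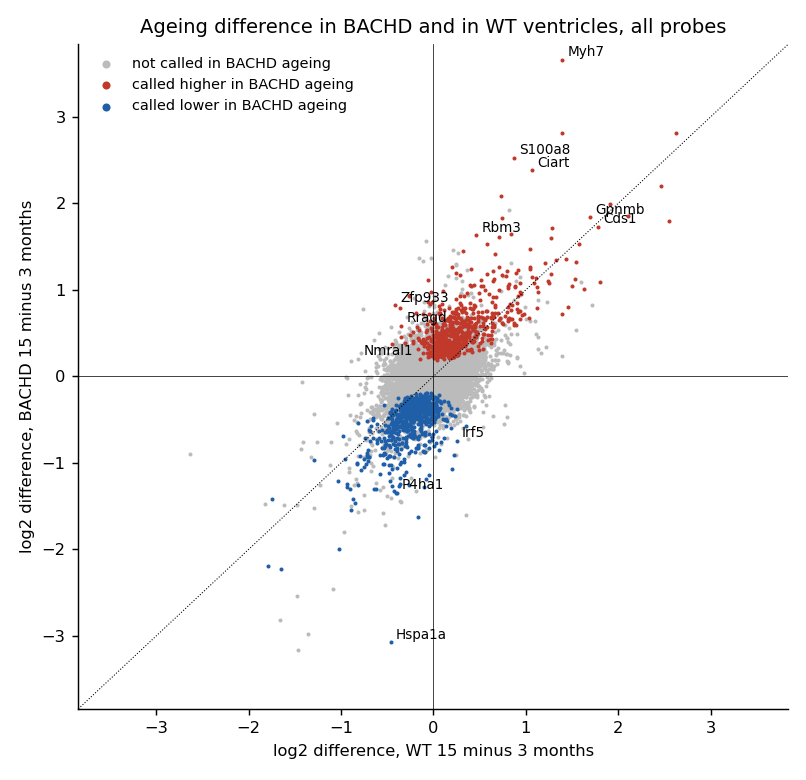
Log2 ageing difference in BACHD (y axis) against that in WT ventricles (x axis) for each of 25697 probes, with probes called in BACHD ageing in colour. Most called probes lie in the quadrants of equal sign (90.3%, against 58.8% of all probes, of which 13920 were detected on no BACHD array). Myh7 lies far above the diagonal (3.66 against 1.39) and Hspa1a far below it (-3.07 against -0.46).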

How the data were processed

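Total RNA of ventricles was hybridised to Illumina MouseRef-8 v2.0 bead arrays, 1 per mouse. The authors deposited a table of probe intensity without normalization, a detection p-value beside each intensity, and a table of processed log2 values, which equalled quantile normalized log2 intensities to within 5e-09. No source used here gives the software version. The deposited intensity values of all 16 arrays were background corrected (normexp, offset 16, where the detection p-values gave the negative controls), quantile normalized and log2 transformed with neqc of limma 3.58.1 in R 4.3.3. All 16 arrays entered 1 limma model of 4 groups (lmFit and eBayes, 12 residual degrees of freedom), with contrasts for BACHD ageing, WT ageing and their difference. Calls used an unadjusted p below 0.005, as the methods did, and Benjamini-Hochberg adjustment ran over all 25697 probes, with no filter. The number of arrays limits the precision.

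Gene symbols came from the platform annotation. Of all probes, 23978 had 1 symbol, for 16593 genes, and 1719 had none. A gene not detected in any array of an age was given as a bound: the mean of the brighter age against the lowest detected level on each array of the dimmer one. The 52 gene lists, read by each gene's brightest probe, and the choice of samples were made with earlier results of these data known. Named genes were the 15 leading probes by p in each direction, detected on all arrays of 1 age, up to 4 called members of each list by size, 5 genes in each direction for the difference between genotypes, and Nppa, Nppb, Myh6, Myh7, Htt and Tbp. A few of them are left out. Promoters are 250 bases before each RefSeq gene start, and 5 motifs were searched. The fit was tested on simulated data. Alternatives were another offset, no background correction, median scaling, the processed values, a detection filter, fewer arrays, array weights, trended variances, averaged probes, a replicate block and leaving out each array.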

Additional observations from a re-analysis of the deposited data

Results flagged for a closer look

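In 426 groups of 4 BACHD arrays, 15 held a value set apart from the other 3 by more than Dixon's 95% critical share of the range. Chance would give about 1 in 20 for groups not chosen on their values. Many of these genes were chosen by p or by size in the same data, and all groups of an age share arrays. That rate is thus no yardstick for the 15 found. At 3 mo these were Tspan17 (9.48), Zfp933 (5.88), Kcnj12 (7.03), C1qc (9.73), Hspa1a (5.92) and the macrophage list (7.62) on array 1, Adam17 (8.99) and the calcium cycling list (8.89) on array 2, Slc17a5 (6.07) on array 3 and Csrp2, a LIM protein of smooth muscle (9.80), on array 4. At 15 mo they were Ctsc (8.30) and Sparc (11.80) on array 3, and Hr (4.87), the senescence list (8.45) and the red blood cell and platelet list (9.61) on array 4.

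The ageing effect differed between genotypes past the threshold of 0.005, though not after adjustment, for 17 of the genes named here. As BACHD minus WT ageing differences in log2, it was higher in BACHD for Rbm3 (1.17), Zfp933 (1.23), Nmral1 (1.01), Rragd (0.93), Slc17a5 (0.83), Bnip3l, a mitophagy receptor (0.58), and Eif1a (0.47). It was lower in BACHD for Irf5 (-0.99), P4ha1 (-0.94), Hr (-0.90), Dut (-0.70), Myl1 (-0.66), Slc26a6 (-0.66), Tgfb3 (-0.63), Stk38l (-0.63), Dpp7 (-0.55) and Slc22a5 (-0.49). The Hr value is that of a probe below detection in aged BACHD hearts, and the brightest Hr probe gave -0.30, not called.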

How the results depend on the processing

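The count of BACHD ageing calls stayed within 1.5 times of 1324 under all alternatives but median scaling, which gave 858 calls and 314 after adjustment, 774 of the 858 shared with the main result. It moved the median over all probes to -0.04, and took the higher share of WT calls from 60.2% to 47.7%. A model of the compared arrays alone gave 1102 calls and 328 adjusted. Leaving out 1 array gave 909 to 1611 calls for BACHD ageing, 302 to 1195 adjusted ones (lowest without aged BACHD array 4, highest without array 3), 493 to 760 for WT and 121 to 331 for the difference between genotypes. That difference gave 95 calls with median scaling, 87 among probes detected on at least 4 arrays (41.4% of them higher, against 50.3%) and 323 once the 4 aged arrays with atrial genes were left out. Without aged BACHD array 3 and aged WT array 4, a setting chosen after seeing the data, it gave 403 and BACHD ageing 1161 adjusted calls. The 2 ages are different mice, and no source used here says what the replicate numbers stand for. Same-numbered arrays of the 2 ages correlated by 0.148, 0.229, 0.101 and 0.0571, and for 2 of the 4 numbers an array correlated best with its own number. With the replicate number as a block there were 1409 calls, 789 of them adjusted, and among the calls given here those of Slc17a5, Tpm2, Cpt2 and Cyc1 were lost.

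Signs turned for Tpm2 (-0.0045) and Asph (0.0501) with probes averaged per gene, and for Nppb without the arrays with atrial genes (0.105) and in the setting chosen after seeing the data (0.0199). Leaving out 1 BACHD array turned Nppb (-0.136 to 0.0199, positive without aged array 3), Nppa (-0.101 to 0.490, negative without aged array 2), Htt (-0.119 to 0.0272, positive without young array 1 and, at 0.0215, without aged array 2) and Tbp (-0.0098 to 0.137, negative without aged array 1). Of these only Tpm2 and Asph were called. The cause was not tested. Of 161 named probes 130 kept direction and side of the threshold with median scaling and 154 with no background correction. Once the 4 aged arrays with atrial genes were left out 122 did, 37 lost their call and 1 turned. Genes near background are limited by signal: 80 called probes were detected on no BACHD array.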

Other observations

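Some large changes lay outside the rule for named genes and are given here as chosen after their values were seen. Both probes of Tfrc, the transferrin receptor that imports iron, fell by 2.22 and 2.19 with age in BACHD ventricles (adjusted p = 0.00687 and 0.00874). The brighter read 11.11, 10.78, 11.49 and 11.00 at 3 mo and 8.98, 8.95, 9.80 and 7.77 at 15 mo, so that no aged heart reached the young range, with array 4 lowest and array 3 highest. In WT the differences were -1.65 and -1.79. Klk1b26, a kallikrein of a family of near-identical genes, was not detected in young BACHD hearts (4.73, 4.69, 4.75 and 5.15) and was at 7.91, 7.41, 6.70 and 8.55 in aged ones (adjusted p = 0.00115), and in WT it went from 4.51 to 4.98 at 3 mo, under the lowest level detected there, to 6.59 to 8.37 at 15 mo. Cyp2b10, a cytochrome P450 best known from liver, and Kcnk1, a potassium leak channel, were likewise detected on all aged and no young BACHD arrays.

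Amy1, an amylase whose sequence is close to that of pancreatic amylase, rose by 1.85 ± 0.24 (adjusted p = 0.00093). The 3 probes of Itgb6, an integrin chain that activates TGF beta, fell by 1.62, 1.35 and 1.26, with adjusted p of 0.0222, 0.0479 and 0.0551. The first of them was within 10.34 to 10.42 in young BACHD hearts and at 9.16, 8.21, 9.89 and 7.77 in aged ones. In WT the 3 probes differed by -0.17, -0.40 and -0.26, in the same order. For none of them was the difference of the ageing effect between genotypes called. Alox12, the platelet lipoxygenase, rose by 1.62 and was highest on aged array 4 (10.50 against 8.49 to 8.82), as were the red blood cell and platelet markers.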
